A study of Mus musculus with 4 samples.

Results

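Glycolysis splits glucose into pyruvate through a chain of cytosolic enzymes, and lactate dehydrogenase then turns pyruvate into lactate. The transcription factor subunit HIF-1 alpha, encoded by Hif1a, pairs with ARNT on DNA and raises the transcription of many of these enzymes under low oxygen or inflammatory stimulation. Dendritic cells (DC) raise glycolysis when they are activated by microbial signals. ARNT is also the DNA-binding partner of the aryl hydrocarbon receptor (AhR), the receptor of the dioxin TCDD, so the transcripts of glycolysis and of Hif1a were examined in DC of mice given TCDD.

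The genes were Hif1a and 9 enzymes, chosen by symbol: Gpi1, Pfkl, Aldoa, Tpi1, Pgk1, Pgam1, Eno1, Pkm and Ldha. By the array annotation used here, 8 of the 10 genes had probe sets, 19 in all, out of 22626 probe sets tested and 12393 genes with probe sets of a single symbol. Gpi1 and Eno1 were not analysed here. No probe set carried a member together with another symbol, and 18 of the 19 lay above the 40th percentile of mean level over all probe sets, log2 5.53 (5.525 unrounded). No filter on low values was applied.

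The samples were 4 Affymetrix arrays of splenic DC from female C57BL/6 mice aged 8 to 12 weeks, with 2 arrays each of mice injected intraperitoneally with 10 µg/kg TCDD in corn oil and of mice given DMSO in corn oil, both taken 24 h after the injection. Per the labels, 3 mice made up each group, spleens were pooled, a density gradient and magnetic beads brought DC to over 90% purity, and RNA was amplified before labelling. The arrays are numbered as biological replicates, but the sources used here do not say whether each had its own pool of mice, so the spread between arrays may be partly technical. In such bulk samples, fewer cells of a type and less RNA per cell cannot be told apart.

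Each value is a log2 RMA level as the authors deposited it, rounded to 1 decimal. A probe set's level depends on its own probes, so levels do not compare the abundance of genes. They served to choose and group probe sets (brightest, dim, or a DMSO mean of at least 8) and to sum cell type markers in each array. Such a sum is ruled by its brightest probe sets. Array medians were 6.0 and 5.9 in TCDD and 5.9 in both DMSO arrays. Across all probe sets TCDD replicate 2 correlated with the DMSO arrays at 0.965 and 0.954 (Pearson), and TCDD replicate 1 at 0.959 with each. The DMSO arrays correlated with each other at 0.982. The TCDD arrays did so at 0.953, the lowest value of any pair. TCDD replicate 1 stood apart from the other arrays in control probe sets, neutrophil markers and some DC marker probe sets, among others. Its Gapdh and beta-actin control probe sets lost more signal between their 3′ and middle parts, and 9 of its 12 measured neutrophil markers lay above both DMSO arrays. Over 12 of 14 listed neutrophil genes the summed unlogged level was 3396 and 961 in TCDD, against 1089 and 942 in DMSO, and S100a8, the highest of them in that array, lay at 10.3 and 5.6 in TCDD against 6.4 and 5.9 in DMSO. S100a8, S100a9 and Ngp made up most of that array's sum, while Elane lay at 6.5 and 6.6 in TCDD against 6.6 in both DMSO arrays. In 3 of the 12 both TCDD arrays lay above both DMSO arrays, against 20% of all genes. Camp was among them, at 6.9 and 6.5 in TCDD against 5.6 and 5.1 in DMSO. In 1, Mmp9, both lay below, at 7.1 and 6.6 in TCDD against 7.2 and 7.5 in DMSO, as in 19.4% of all genes. DC markers were present, with Itgax at 9.1 and 9.4 in TCDD and 9.6 and 10.1 in DMSO. The brightest H2-Aa probe set lay at 13.0 and 12.9 in TCDD and 13.3 and 12.9 in DMSO. The other H2-Aa probe set lay at 7.6 and 11.3 in TCDD against 11.9 and 10.8 in DMSO. The dimmer H2-Ab1 probe sets were also lowest in TCDD replicate 1, with differences of -2.50 and -2.60, against -0.45 in the brightest. A dimmer Cd24a probe set was highest in that array, at 9.2 and 7.6 in TCDD against 8.6 and 8.8 in DMSO. Over 16 of 18 listed DC markers the summed level was 21069 and 29838 in TCDD and 41294 and 30961 in DMSO, and 16 of 16 had a mean difference below 0. Of the 16, 11 had a DMSO mean of at least 8, where 2951 of all 3536 probe sets differed by less than 0. Macrophage and monocyte markers are given beside Hmox1 below. The list medians of TCDD minus DMSO were -0.25 for B cell, -0.10 for T and NK cell and 0.30 for erythroid markers. The part of these shifts in the values below was not tested.

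The promoters of 5 members are shown because they carry the binding letters of the factors named above: Hif1a, Pfkl, Pgk1 and Pgam1, each of which had a probe set whose TCDD and DMSO arrays did not overlap, and Ldha, which had none. Each window runs from 250 bases before to 50 bases after a RefSeq transcript start in GRCm38.p6. Capitals mark ACGTG and GCGTG on either strand (CACGT and CACGC when read on the printed strand); both serve as the core of the HIF element, and GCGTG is also the core of the AhR element. The palindrome CACGTG counts once on each strand. The windows lie at chr12:73907617-73907916 (+) for Hif1a, chr10:78009758-78010057 (-) for Pfkl, chrX:106186850-106187149 (+) for Pgk1, chr19:41911621-41911920 (+) for Pgam1 and chr7:46845554-46845853 (+) for Ldha, and each is printed in the direction of transcription.
Hif1a: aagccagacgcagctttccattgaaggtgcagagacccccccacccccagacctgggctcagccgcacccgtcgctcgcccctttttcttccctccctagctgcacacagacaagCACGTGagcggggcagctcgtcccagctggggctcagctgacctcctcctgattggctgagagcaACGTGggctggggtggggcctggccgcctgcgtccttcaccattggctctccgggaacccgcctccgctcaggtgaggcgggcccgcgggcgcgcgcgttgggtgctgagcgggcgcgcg
Pfkl: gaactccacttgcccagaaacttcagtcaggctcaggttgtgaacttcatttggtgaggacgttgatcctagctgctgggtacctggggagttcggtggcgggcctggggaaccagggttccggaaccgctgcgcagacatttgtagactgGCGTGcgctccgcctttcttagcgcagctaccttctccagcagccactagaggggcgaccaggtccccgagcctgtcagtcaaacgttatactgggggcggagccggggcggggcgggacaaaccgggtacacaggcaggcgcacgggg
Pgk1: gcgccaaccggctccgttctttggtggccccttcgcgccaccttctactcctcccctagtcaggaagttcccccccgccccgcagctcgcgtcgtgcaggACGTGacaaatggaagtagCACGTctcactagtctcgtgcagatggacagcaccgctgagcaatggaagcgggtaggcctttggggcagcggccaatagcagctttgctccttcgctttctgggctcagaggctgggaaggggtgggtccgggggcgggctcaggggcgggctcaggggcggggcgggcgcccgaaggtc
Pgam1: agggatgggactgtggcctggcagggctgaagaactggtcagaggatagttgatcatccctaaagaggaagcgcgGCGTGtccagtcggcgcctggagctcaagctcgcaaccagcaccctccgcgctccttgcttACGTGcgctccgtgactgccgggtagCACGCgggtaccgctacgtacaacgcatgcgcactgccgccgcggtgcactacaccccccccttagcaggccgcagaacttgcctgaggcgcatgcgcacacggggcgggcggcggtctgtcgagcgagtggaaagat
Ldha: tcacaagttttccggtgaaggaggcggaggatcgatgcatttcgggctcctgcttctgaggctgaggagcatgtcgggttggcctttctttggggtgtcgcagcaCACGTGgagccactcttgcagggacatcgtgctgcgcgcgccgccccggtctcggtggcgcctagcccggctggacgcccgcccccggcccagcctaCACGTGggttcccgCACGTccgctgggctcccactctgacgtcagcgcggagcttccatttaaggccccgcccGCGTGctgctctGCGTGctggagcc
Hif1a held 3 matches, all of ACGTG, and Pfkl held 1, of GCGTG. Pgk1 held 2 of ACGTG, and Pgam1 held 1 of ACGTG and 2 of GCGTG. Ldha held 5 of ACGTG and 2 of GCGTG in the printed window. The RefSeq table used here gives 16 windows for the 10 genes, some of which overlap, and 12 of the 16 held ACGTG or GCGTG, against 43.8% of 32851 windows of the same length. Median GC content was 65.0% in the member windows and 52.7% in all windows, and both motifs contain CG. Ldha, with 7 matches, and Pfkl, with 1, can be set beside their expression values below, but a match of letters is a description and not a bound site.

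No transcript of the 8 measured genes passed the test between TCDD and DMSO, though with 2 arrays a group this does not show that the levels were alike. Limma's moderated test (lmFit and eBayes, two-sided, Benjamini-Hochberg over 22626 probe sets) called 0 of the 19 member probe sets at an adjusted p under 0.05, and it called 0% of all probe sets. The adjusted p of the members ran from 0.349 to 1. At an unadjusted p under 0.05 there were 2 member probe sets, 1 of Pgk1 and 1 of Hif1a, against 13.1% of all probe sets. Each difference is the TCDD mean less the DMSO mean in log2 units, with the moderated standard error (SE) and n = 2 arrays per group, and those of the members ran from -0.60 to 0.40. An exact permutation test of 2 arrays against 2 cannot go below p = 0.33, so none was run.

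**Figure D1:**
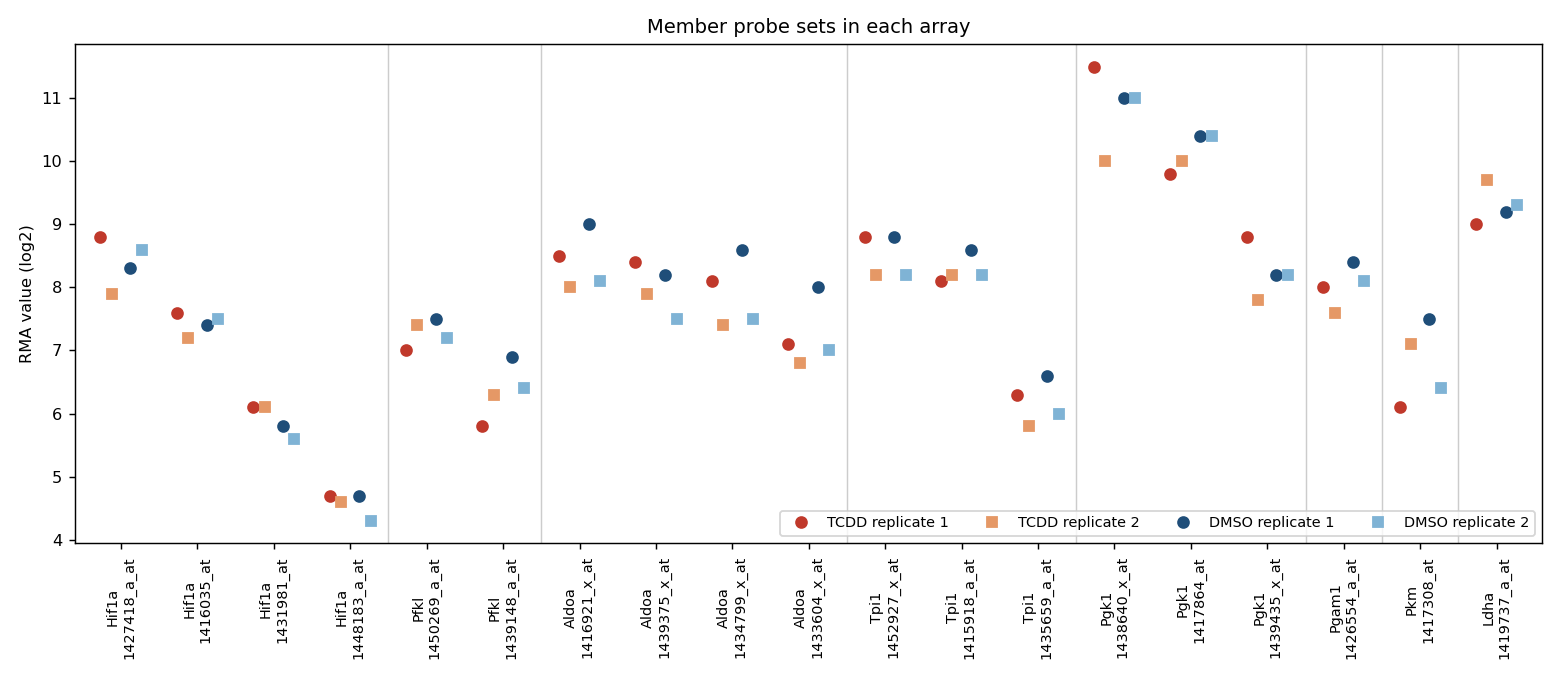
RMA value on the log2 axis for each of the 19 member probe sets, with TCDD arrays in red and orange to the left of DMSO arrays in dark and light blue; each point is 1 array. The arrays of a group often lie as far apart as the groups, as for Pgk1 1438640_x_at at 11.5 and 10.0 in TCDD and 11.0 in both DMSO arrays.

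Hif1a, the oxygen-regulated subunit of HIF-1, had 4 probe sets that did not move as one. Its brightest, 1427418_a_at, lay at 8.8 and 7.9 in TCDD, against 8.3 and 8.6 in DMSO. The TCDD arrays thus lay above and below both DMSO arrays, and the difference was -0.10 (SE 0.390, adjusted p = 0.923, limma), with a 95% interval from -1.34 to 1.14. Probe set 1416035_at showed the same order, at 7.6 and 7.2 in TCDD against 7.4 and 7.5 in DMSO, a difference of -0.05. Without TCDD replicate 1 the brightest probe set differed by -0.55, and without TCDD replicate 2 by 0.35, so the sign rested on which array was kept.

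The one Hif1a probe set whose groups did not overlap was 1431981_at, at 6.1 and 6.1 in TCDD against 5.8 and 5.6 in DMSO. It was higher by 0.40 or 1.32-fold (SE 0.102, adjusted p = 0.379, limma), and the difference was 0.40 also with either TCDD array left out. Among all probe sets 19% were higher without overlap, and among the members 1 of 19. The dimmest, 1448183_a_at, lay at 4.7 and 4.6 in TCDD and 4.7 and 4.3 in DMSO, under the 40th percentile of all probe sets.

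Pfkl encodes the liver type of phosphofructokinase, which commits fructose 6-phosphate to glycolysis. Its brighter probe set, 1450269_a_at, lay at 7.0 and 7.4 in TCDD, against 7.5 and 7.2 in DMSO, with overlapping groups and a difference of -0.15 (SE 0.212). The dimmer one, 1439148_a_at, lay at 5.8 and 6.3 in TCDD, against 6.9 and 6.4 in DMSO. There both TCDD arrays were the lower ones, and the difference of -0.60 or 0.660-fold (SE 0.294, adjusted p = 0.444, limma) was the largest in size among the 19 member probe sets. It was -0.35 without TCDD replicate 1 and -0.85 without TCDD replicate 2.

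Aldoa, aldolase A, cleaves fructose 1,6-bisphosphate into a pair of triose phosphates. All 4 of its probe sets have the suffix _x_at, which Affymetrix gives to probe sets with probes that can also bind other transcripts. In the brightest, 1416921_x_at, values were 8.5 and 8.0 in TCDD, against 9.0 and 8.1 in DMSO. The groups overlapped, at a difference of -0.30 (SE 0.423, adjusted p = 0.757, limma). The other probe sets differed by 0.30, -0.30 and -0.55, each with overlap, so the gene's own probe sets had both signs. DMSO replicate 1 lay above DMSO replicate 2 in each of them, and without DMSO replicate 1 the brightest gave 0.15.

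Tpi1, triose phosphate isomerase, interconverts these triose phosphates. Its brightest probe set, 1452927_x_at, held the same pair of values, 8.8 and 8.2, in TCDD and in DMSO, a difference of 0.00 (SE 0.350) with a 95% interval from -1.11 to 1.11. Probe set 1415918_a_at lay at 8.1 and 8.2 in TCDD against 8.6 and 8.2 in DMSO, and 1435659_a_at at 6.3 and 5.8 in TCDD against 6.6 and 6.0 in DMSO. Both differed by -0.25, and in each a value of one group reached the other group's range.

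Pgk1, phosphoglycerate kinase 1, carries out the first ATP-forming step of glycolysis, and its 3 probe sets split. Probe set 1417864_at lay at 9.8 and 10.0 in TCDD, against 10.4 in both DMSO arrays. Both TCDD arrays were lower, by 0.50 on the log2 scale or 0.707-fold on average (difference -0.50, SE 0.102, adjusted p = 0.349, limma), and the difference was -0.40 without TCDD replicate 1 and -0.60 without TCDD replicate 2. This adjusted p equals the smallest among all 22626 probe sets, but it is a tie and not a rank. Probe sets of Fbp1, Pdk1 and Hmox1, named below, share it, as do others. After quantile normalization the difference was -0.17 (-0.175 unrounded), and after cyclic loess -0.20.

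The other Pgk1 probe sets, both with the suffix _x_at, did not share it. The brightest, 1438640_x_at, lay at 11.5 and 10.0 in TCDD, against 11.0 in both DMSO arrays, and 1439435_x_at at 8.8 and 7.8 in TCDD, against 8.2 in both DMSO arrays. In each of them TCDD replicate 1 was the highest array and TCDD replicate 2 the lowest. The differences were -0.25 (SE 0.613) and 0.10 (SE 0.411). For the brightest the value was -1.00 without TCDD replicate 1 and 0.50 without TCDD replicate 2.

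Pgam1, phosphoglycerate mutase 1, moves the phosphate group of phosphoglycerate before enolase acts. Its single probe set, 1426554_a_at, lay at 8.0 and 7.6 in TCDD, against 8.4 and 8.1 in DMSO. Both TCDD arrays were below both DMSO arrays, by a mean difference of -0.45 or 0.732-fold (SE 0.212, adjusted p = 0.444, limma), and the difference was -0.65 without TCDD replicate 1 and -0.25 without TCDD replicate 2. Quantile normalization left -0.17 (-0.175 unrounded) and cyclic loess -0.21. It was the 1 gene of the 8 whose brightest probe set separated the groups.

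Pkm encodes pyruvate kinase of muscle and most other tissues, which forms pyruvate and ATP, and had 1 probe set, 1417308_at, at 6.1 and 7.1 in TCDD against 7.5 and 6.4 in DMSO. Within each group the arrays lay at least 1.0 apart, and the difference of -0.35 had an SE of 0.607 and a 95% interval from -2.27 to 1.57. It was 0.15 without TCDD replicate 1 and -0.85 without TCDD replicate 2. The values do not tell the splice forms of Pkm apart.

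Ldha, lactate dehydrogenase A, the enzyme of lactate formation and a textbook HIF-1 target, had 1 probe set, 1419737_a_at, at 9.0 and 9.7 in TCDD against 9.2 and 9.3 in DMSO. The TCDD arrays enclosed the DMSO arrays, as they did for the brightest Hif1a probe set but with the replicates the other way round. The difference was 0.10 or 1.07-fold (SE 0.294, adjusted p = 0.890, limma), with a 95% interval from -0.83 to 1.03. It was 0.45 without TCDD replicate 1 and -0.25 without TCDD replicate 2.

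**Figure D2:**
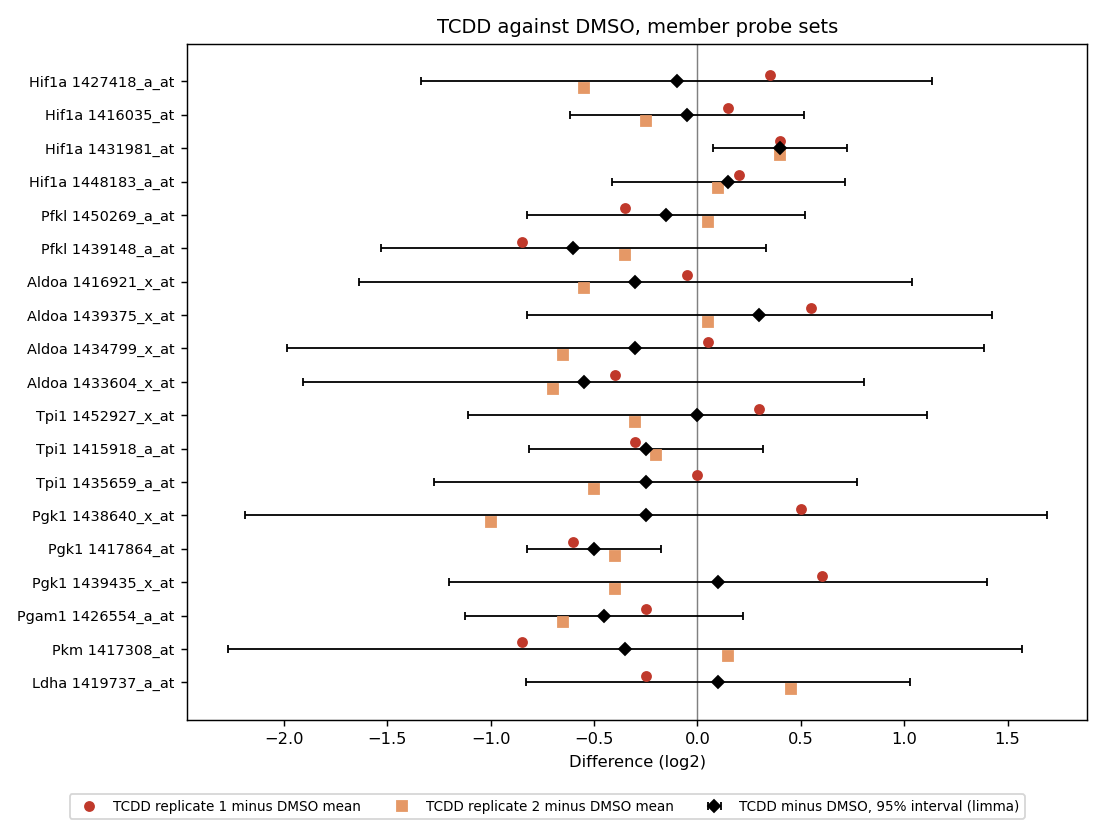
Difference to DMSO on the log2 axis for the 19 member probe sets: black diamonds are TCDD minus DMSO with the 95% interval from limma, red circles TCDD replicate 1 and orange squares TCDD replicate 2, each minus the DMSO mean. Intervals of 17 of the 19 probe sets include 0, and in 9 of the 19 the TCDD arrays lie on opposite sides of the DMSO mean.

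Set side by side, 13 of the 19 member probe sets had a difference below 0, 5 above 0 and 1 at 0, with a median of -0.25, against 0.00 over all probe sets tested. In 3 of the 19 (15.8%) both TCDD arrays were lower than both DMSO arrays, namely Pgk1 1417864_at, Pgam1 1426554_a_at and Pfkl 1439148_a_at, against 18.4% of all probe sets. On the higher side the members' share was 5.26%, from the Hif1a probe set 1431981_at alone, against 19% of all probe sets. The member median was -0.35 without TCDD replicate 1, 0.00 without TCDD replicate 2, 0.05 without DMSO replicate 1 and -0.30 without DMSO replicate 2, where that of all probe sets lay between -0.10 and 0.05. The member median turned to 0.05 after quantile normalization and 0.02 after cyclic loess, so its sign depended on the scaling and on single arrays.

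The level of a probe set, taken as its DMSO mean, went with its difference. The DMSO mean is also the term subtracted, so noise in the DMSO arrays alone gives a relation of this sign. Its share in the relation was not tested. All 3536 probe sets with a DMSO mean of at least 8 had a median difference of -0.40, which was -0.06 after quantile normalization (-0.0625 unrounded); 41.7% of them were lower without overlap and 1.98% higher. Of the 19 member probe sets 10 lay in this range; their median was -0.25, 2 were lower without overlap and 0 higher. The 9 dimmer member probe sets had a median of -0.15, with 1 lower and 1 higher, against 14% lower and 22.2% higher of all 19090 probe sets in that range.

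**Figure D3:**
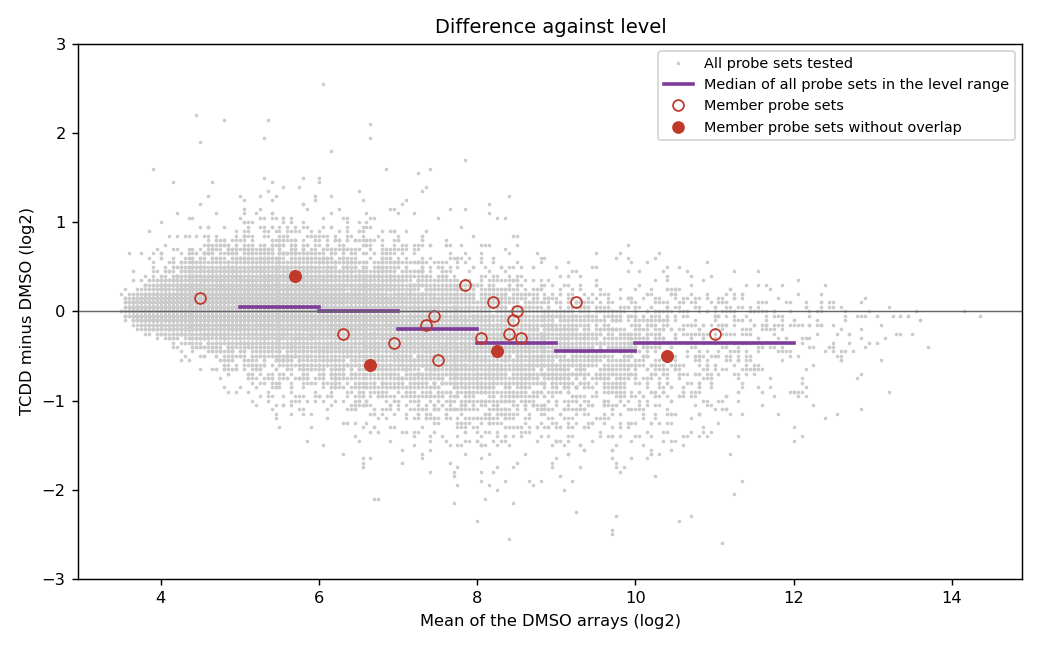
TCDD minus DMSO (log2) against the mean of the DMSO arrays (log2); grey points are all probe sets tested, purple lines their median in each range of level, open red circles the member probe sets and filled red circles the 4 without overlap. The purple medians go from 0.05 at a level of 5 to 6 to -0.45 at 9 to 10, and the members scatter around them. The DMSO mean enters both axes. Beyond a difference of 3, 1 probe set is not drawn.

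The replicates of TCDD parted by kind of probe set. In all 7 member probe sets with the suffix _x_at, those of Aldoa, Tpi1 and Pgk1, TCDD replicate 1 was above TCDD replicate 2, with a median gap of 0.60. In the 12 others it was above in 5, with a median gap of -0.05. Over the whole table TCDD replicate 1 was the higher in 72.4% of 1512 _x_at probe sets and in 55.2% of the rest. The 4 members without overlap were all among the 12 others. Over the whole table a lack of overlap was also rarer among _x_at probe sets, at 10.3% lower and 14.3% higher, than among the rest, at 18.9% lower and 19.4% higher.

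Around the members, 6 lists of related genes named 97 genes, of which 77 were measured. Limma called 0 of the 77 on the brightest probe set of each gene. At an unadjusted p under 0.05 there were 15 of 77, against 14.5% of all 12393 genes, and 19 were lower and 13 higher without overlap, against 19.4% lower and 20% higher over all genes. The brightest probe sets of the 8 members had a median of -0.20, with 1 lower and 0 higher.

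Among other enzymes and isoenzymes of the glycolytic steps, 7 of 19 measured genes were higher without overlap and 2 lower, against 20% and 19.4% of all genes. The list median was 0.05, which was 0.14 after quantile normalization and 0.00 after median centring. All 7 higher genes had a DMSO mean under 8, where 22.2% of all probe sets were higher and 14% lower. Of these 7, Bpgm differed by -0.25 and 0.20 on its other probe sets, and Pklr by -0.35 and 0.30. Fbp1, the fructose bisphosphatase that runs the phosphofructokinase step backwards, lay at 6.4 and 6.6 in TCDD, against 5.7 in both DMSO arrays, a difference of 0.80 or 1.74-fold (SE 0.102, adjusted p = 0.349, limma). Adpgk, an ADP-dependent glucokinase, lay at 6.8 and 6.5 in TCDD, against 6.1 in both DMSO arrays, and differed by 0.55. Both TCDD arrays were above both DMSO arrays in these brightest probe sets, but the other probe set of Adpgk overlapped, at 7.3 and 5.7 in TCDD against 5.8 and 6.0 in DMSO.

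Eno3, the muscle enolase, lay at 8.0 and 7.7 in TCDD, against 8.7 and 8.4 in DMSO, a difference of -0.70 (SE 0.183, adjusted p = 0.379, limma). Pfkp, the platelet phosphofructokinase, lay at 7.8 and 7.0 in TCDD, against 7.9 in both DMSO arrays, and differed by -0.50. In these probe sets the TCDD arrays were the lower ones; the other Pfkp probe set, at 4.9 and 5.1 in TCDD against 4.8 and 4.9 in DMSO, overlapped at a difference of 0.15. Gapdh was measured here by Affymetrix control probe sets alone and was not part of the test; its 3′ probe set lay at 11.0 and 11.0 in TCDD and 11.2 and 10.9 in DMSO, its middle one at 7.4 and 9.0 in TCDD and 9.7 and 8.8 in DMSO.

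Among glucose and lactate transporters 1 of 9 measured genes was higher and 1 lower without overlap, and the median was -0.05. Slc16a3, the lactate exporter MCT4, lay at 6.4 and 6.5 in TCDD, against 6.1 and 5.9 in DMSO, a difference of 0.45 (SE 0.110, adjusted p = 0.379, limma). Slc2a9, a urate and hexose transporter, lay at 5.4 in both TCDD arrays and 5.5 in both DMSO arrays, a step of 0.1 that is also the rounding unit of the file.

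The list of flux regulators and of pyruvate entry to mitochondria had 5 of 11 measured genes lower without overlap and 2 higher. Of all genes 19.4% were lower and 20% higher. The list median was -0.35, which was -0.08 after quantile normalization. Pdk1, a kinase that switches off pyruvate dehydrogenase and is a HIF-1 target, lay at 7.0 and 7.0 in TCDD, against 7.5 and 7.8 in DMSO, a difference of -0.65 or 0.637-fold (SE 0.137, adjusted p = 0.349, limma). Its other probe set, at 7.2 and 5.9 in TCDD and 6.5 and 7.1 in DMSO, overlapped. Pdha1, the pyruvate dehydrogenase subunit which that kinase phosphorylates, differed by -0.60, and Pdhb, its partner subunit, by -0.45, but their dimmer probe sets differed by 0.05 and 0.10. Dld, the lipoamide dehydrogenase of the same complex, differed by -0.40 at a level below the 40th percentile.

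In the pentose phosphate pathway, which branches from glucose 6-phosphate, 3 of 6 measured genes were lower without overlap and 0 higher. The list median was -0.47 (-0.475 unrounded), and -0.19 after quantile normalization. Of the 6 genes 5 had a DMSO mean of at least 8. Of all probe sets in that range 41.7% were lower and 1.98% higher, with a median of -0.40. Taldo1, transaldolase, lay at 8.4 and 10.3 in TCDD, against 10.9 and 10.5 in DMSO. The low value was that of TCDD replicate 1, and the difference of -1.35 (SE 0.791) was -0.40 without that array. Rpe differed by -1.00 on its brightest probe set and by -0.20 and 0.05 on its others, and Rpia, the other pentose isomerising enzyme, by -0.65 (SE 0.159, adjusted p = 0.379, limma).

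HIF partners and regulators had 3 of 14 measured genes lower and 1 higher without overlap, with a median of -0.05, which was 0.04 after quantile normalization (0.0375 unrounded). Arnt, named for its role as the shared partner of HIF-1 alpha and AhR and not for its difference, lay at 5.1 and 5.0 in TCDD and at 5.1 and 5.0 in DMSO, below the 40th percentile. Crebbp, the coactivator CBP, differed by -0.65 (SE 0.212, adjusted p = 0.386, limma), the cullin gene Cul2 of the VHL ubiquitin ligase by -0.40 (0.00 on its other probe set) and Epas1, which encodes HIF-2 alpha, by 0.15. Hif3a differed by -0.30 on its brightest probe set and by 0.40 and 0.75 on its others.

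HIF-1 targets outside glycolysis had 5 of 18 measured genes lower and 2 higher without overlap, with a median of -0.08 (-0.075 unrounded), which was -0.02 after quantile normalization (-0.025 unrounded). Hmox1, heme oxygenase 1, lay at 7.7 and 7.9 in TCDD, against 8.8 and 9.0 in DMSO, a difference of -1.10 or 0.467-fold (SE 0.131, adjusted p = 0.349, limma). Hmox1 is also on the list of macrophage and monocyte markers, where 5 of 14 measured genes were lower without overlap and 0 were higher. The list median was -0.68 (-0.675 unrounded), and -0.38 after quantile normalization. Of the 14 genes 8 had a DMSO mean of at least 8, where 41.7% of all probe sets were lower and 1.98% higher. The summed level was 10244 and 6888 in TCDD and 11367 and 12446 in DMSO. Its largest term was Csf1r, which overlapped, at 12.5 and 11.4 in TCDD and 12.1 in both DMSO arrays. Whether fewer such cells were in the TCDD samples was not tested. Kdm3a, a histone demethylase, differed by -0.75, and Adm, adrenomedullin, by 0.50 at a level below the 40th percentile. Bhlhe40, a transcriptional repressor, differed by -0.45, which was -0.09 after quantile normalization (-0.0875 unrounded) and -0.16 after cyclic loess.

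**Figure D4:**
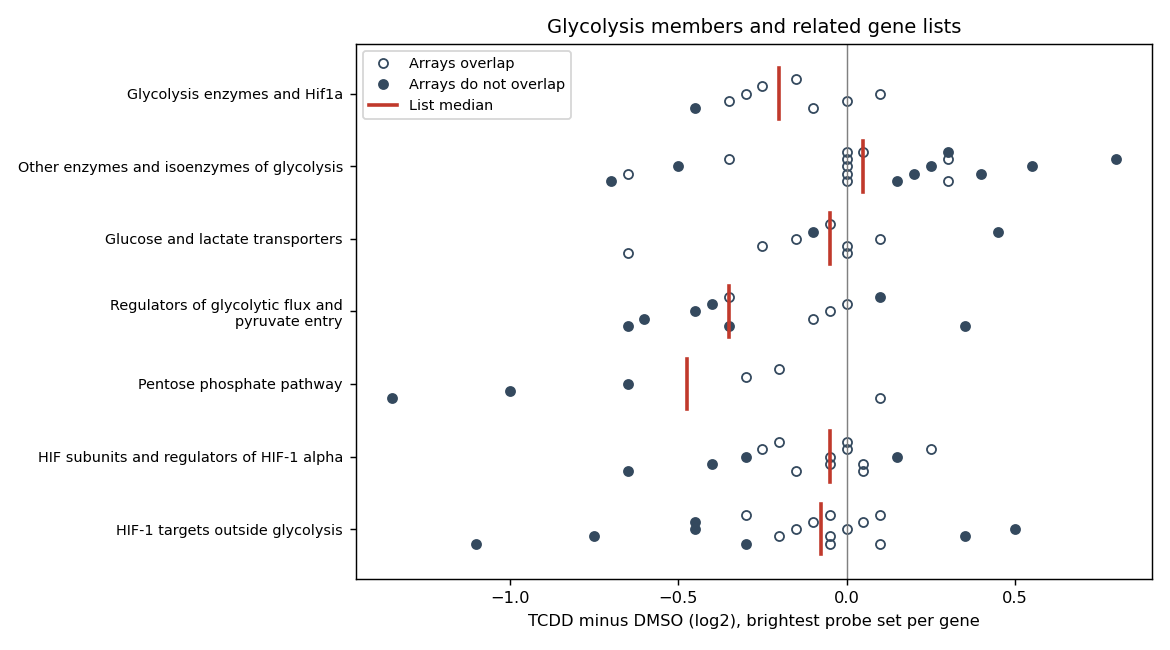
TCDD minus DMSO (log2) for the brightest probe set of each gene in the members and 6 related lists; filled points are genes whose TCDD and DMSO arrays do not overlap, open points the others, and red bars the list medians. The members lie between -0.45 and 0.10, while single genes of the other lists reach -1.35 (Taldo1), -1.10 (Hmox1) and 0.80 (Fbp1).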

How the data were processed

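Gene expression was measured on 4 Affymetrix arrays, 2 each of DC from mice given TCDD or DMSO. The authors deposited log2 values made with RMA (per the submitters' processing notes), a method that corrects background, normalizes arrays by quantiles and combines a probe set's probes into 1 value; its software is not given. Every value is a multiple of 0.1. As deposited, the 4 arrays did not share 1 distribution of values. A further quantile normalization moved the median difference of probe sets with a DMSO mean of at least 8 from -0.40 to -0.06 (-0.0625 unrounded). The file's 64 control probe sets were left out, leaving 22626, of which 20380 had 1 symbol, 691 several and 1555 none; symbols were updated through gene IDs to GRCm38.p6, and promoter windows come from RefSeq.

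TCDD was compared with DMSO with limma 3.58.1 in R 4.3.3, calls needing an adjusted p under 0.05. The fit was tested on simulated data. Arrays give no counts, so their number limits the precision. The brightest probe set (highest mean over the 4 arrays) stands for a gene where 1 value is needed. From each related list up to 4 genes were named, those of largest difference without overlap. The members, lists and tests were chosen with earlier results of these data known. Alternatives were other scalings, priors, thresholds and blocks, no moderation, no dim probe sets, a gene's mean over its probe sets and leaving out each array.

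The labels do not say that equal replicate numbers share a batch; across probe sets, the gap between replicates 1 and 2 in TCDD correlated with that in DMSO at -0.189.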

Additional observations from a re-analysis of the deposited data

Results flagged for a closer look

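Control probe sets outside the comparison showed wider gaps between their 3′ and inner parts in TCDD replicate 1 than in either DMSO array. In that array the 3′ probe set of Gapdh, itself a glycolytic enzyme, lay 3.6 log2 units above the middle one, against at most 2.1 in DMSO, and 5.4 above the 5′ one, against at most 4.9 in DMSO. The beta-actin 3′ probe set lay 4.0 above the middle one, against at most 2.1 in DMSO, and 4.4 above the 5′ one, against at most 4.0 in DMSO. TCDD replicate 2 exceeded the higher DMSO array in none of the 4 gaps. Their part in the values of the glycolysis genes was not tested. Without TCDD replicate 1 the median difference over the 8 genes' brightest probe sets was -0.43 (-0.425 unrounded), against -0.20 with all arrays. Of these 8 probe sets 6 had a DMSO mean of at least 8. All probe sets in that range had a median of -0.50 without that array, against -0.40 with all arrays.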

How the results depend on the processing

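Limma called 0 member probe sets and 0 of all those tested under each planned setting, including the replicate block, the trended robust prior, no moderation (probe sets without spread left untested), removal of dim probe sets, an adjusted p under 0.10, 3 scalings and each array left out; the smallest adjusted p ran from 0.114 without TCDD replicate 1 to 0.612 without moderation, and was 0.421 with the replicate block. Crossing the replicate numbers, added after seeing the data, called 0 as well. The median of -0.20 over the 8 genes became 0.03 (0.03125 unrounded) after quantile normalization, 0.01 (0.0138 unrounded) after cyclic loess, and -0.43 (-0.425 unrounded) to 0.03 (0.025 unrounded) with 1 array left out, the extremes without TCDD replicate 1 and without DMSO replicate 1. Of the member probe sets 3 were lower without overlap, which became 0 after quantile normalization, 1 after cyclic loess and 3 to 11 with 1 array left out (removing TCDD replicate 1 gave 11, removing DMSO replicate 2 gave 10 and removing TCDD replicate 2 gave 7). The number higher was 1, which became 2 after either scaling and 1 to 6 with 1 array left out (removing TCDD replicate 2 gave 6, removing DMSO replicate 1 gave 3 and removing TCDD replicate 1 gave 2). A group of 1 array separates more readily by construction, and its fit assumes that the array varies like the other group's. The shares of all probe sets without overlap were not taken under these scalings or with an array left out. The counts there are thus no result about the members.

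Of 80 recomputed gene differences 14 reversed, none of them called; the 80 include those of Tpi1, which at 0.00 had no sign to turn, and those of the prior and the block, which leave the difference as it is. Pgam1 never reversed. Quantile normalization turned Hif1a to 0.22 (0.225 unrounded), Pfkl to 0.05 and Aldoa to 0.01 (0.0125 unrounded), and cyclic loess turned Hif1a to 0.18 and Pgk1 to 0.04 (0.0438 unrounded). Averaging its probe sets gave Hif1a 0.10. With 1 array left out Hif1a ran from -0.55 to 0.35 (0.05 without DMSO replicate 2), Pfkl from -0.35 to 0.05, Aldoa from -0.75 to 0.15, Pgk1 from -1.00 to 0.50, Pkm from -0.90 to 0.20 (0.15 without TCDD replicate 1) and Ldha from -0.25 to 0.45. The causes were not tested. Further limits are the rounding to 0.1 and the 2 arrays per group.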

Other observations

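Single genes outside the pathway lay close to the brightest Hif1a probe set, or to the median of the enzymes, over the 4 arrays. The enzymes themselves had no common pattern, with TCDD replicate 1 above TCDD replicate 2 in 4 of the 7. Among 2717 other probe sets with 1 symbol and a mean of at least 8, values centred on their own mean were compared by root mean square distance. Closest to the brightest Hif1a probe set was one of Usp7, a deubiquitinase, at a distance of 0, with 10.1 and 9.2 in TCDD and 9.6 and 9.9 in DMSO; Ankrd10 and Ankfy1 followed at 0.0433 each. Closest to the median of the 7 measured enzymes were Mtarc2, Trappc3 and Sncb, at 0.0306 each. Over 4 arrays and values rounded to 0.1 such likeness is a description only.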
